A study of Mus musculus with 6 samples.

Results

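The nuclear pore and karyopherin transport genes were read in mouse embryonic fibroblasts (MEFs), primary connective tissue cells of C57BL/6 embryos, over 3 stages of culture. The members were the genes of the deposited table whose symbol is Nup and a number, begins with Kpna, Kpnb, Xpo or Ipo, or is Ndc1, Pom121, Aaas, Seh1l, Sec13, Tpr, Rae1, Ran, Rangap1 or Ranbp2. This gave 49 genes of 21988. Cells were harvested at population doubling (PD) 2, 8 and 14, where a doubling is the log2 of cells counted over cells seeded, summed over passages. No transgene or drug was used, and the series title names senescence, the lasting arrest of division in cultured cells. Each stage had 2 libraries: replicate 1 was strand-specific and depleted of ribosomal RNA, and replicate 2 was enriched for poly(A) RNA. Replicate number and library method therefore cannot be told apart, and the 2 methods are given apart throughout as poly(A) and rRNA-depleted. Separate cultures behind the libraries are not named in the labels, so the spread of these 6 libraries may be technical. The p-values measure only how far the 2 methods differ in the changes between stages, since the model holds library method.

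A nuclear pore is a ring of nucleoporin proteins set in the nuclear envelope. Importins and exportins, together called karyopherins, carry proteins and some RNAs through it. In classical import, importin alpha reads the nuclear localization signal of a cargo and binds importin beta (Kpnb1), which passes the pore. The small GTPase Ran, bound to GTP in the nucleus, releases the cargo there, and exportins bind their cargo together with Ran-GTP. Rangap1 makes Ran hydrolyse its GTP on the cytoplasmic side.

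Expression is given as TPM, the authors' transcript abundance scaled per transcript length and to the size of the library. TPM hold no read numbers, so the depth of the libraries is unknown. Pairs of libraries that share a method had log2 correlations over genes of 0.925 to 0.982, and pairs that share a stage 0.873 to 0.932. All 10 fibroblast markers examined passed the filter on low values, which keeps genes that reach 1 TPM in 2 or more libraries. Epcam and Cdh1 of epithelium, Pecam1 and Cdh5 of endothelium, Myod1 of muscle and Snap25 of neurons stayed below 1 TPM in every library. Other markers on these lists were present, among them Krt19 of epithelium at up to 28.5 TPM, Kdr of endothelium at up to 6.65 TPM, and Tubb3 and Map2 of neurons at up to 91.8 and 160.4 TPM. The summed TPM of 7 leukocyte markers was 652 in poly(A) and 32.3 in rRNA-depleted cells at PD14, against 383 and 135 at PD2. Most of these sums was Lyz2, at 569 and 21.7 TPM at PD14, against 337 and 98.5 TPM at PD2. C1qa was lower at PD14 in poly(A), at 7.07 against 12.2 TPM. The summed TPM of 4 skeletal muscle markers was 12.1 and 3.99 at PD14, against 99.1 and 42.9 at PD2. That of 5 epithelial markers was 2.22 and 5.21 at PD14, against 37.1 and 21.9 at PD2. The sum of 4 endothelial markers was 3.50 and 7.13 at PD14, against 8.44 and 7.22 at PD2, and that of 4 neural markers 115 and 176 at PD14, against 131 and 78.7 at PD2. The part of such cells in the values of the transport genes was not tested.

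The summed level of the transport genes was lower in late than in early cultures. The 49 members together had 2849 TPM in the poly(A) and 2769 TPM in the rRNA-depleted library of PD14, against 4174 and 3748 TPM at PD2. PD14 thus held 68.3% of the PD2 sum in poly(A) and 73.9% in rRNA-depleted libraries. The PD8 sums, 3353 and 3175 TPM, lay between the other stages. In bulk RNA, fewer cells of a type and less RNA per cell cannot be told apart.

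Of the 49 members, 47 passed the filter, and the lowest value of any of these in a library was 7.15 TPM, so none passed only through the stage where it was high. Kpna7, an importin alpha known from oocytes and early embryos, was listed at 0 in all 6 libraries. Nup210, a membrane nucleoporin, was listed at 0.06 TPM in poly(A) and 0 in rRNA-depleted cells at PD14, against 1.01 and 0.24 TPM at PD2. The PD14 minus PD2 difference was tested with limma on log2(TPM + 1), with library method as a block and Benjamini-Hochberg adjustment over 13332 genes. Of the 47 members, 10 fell and 0 rose at adjusted p under 0.05, where 4.77% of all tested genes fell and 6.41% rose. Fitted values were negative for 43 members and positive for 4. Their median was -0.38, beside a median of 0.06 over all genes tested, of which 45.1% were negative. In both methods 39 members were lower at PD14 than at PD2, beside 30.8% of tested genes, and 3 were higher, beside 38.8%. Both PD14 libraries lay below both PD2 libraries for 25 members, as for 15.8% of tested genes.

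**Figure D1:**
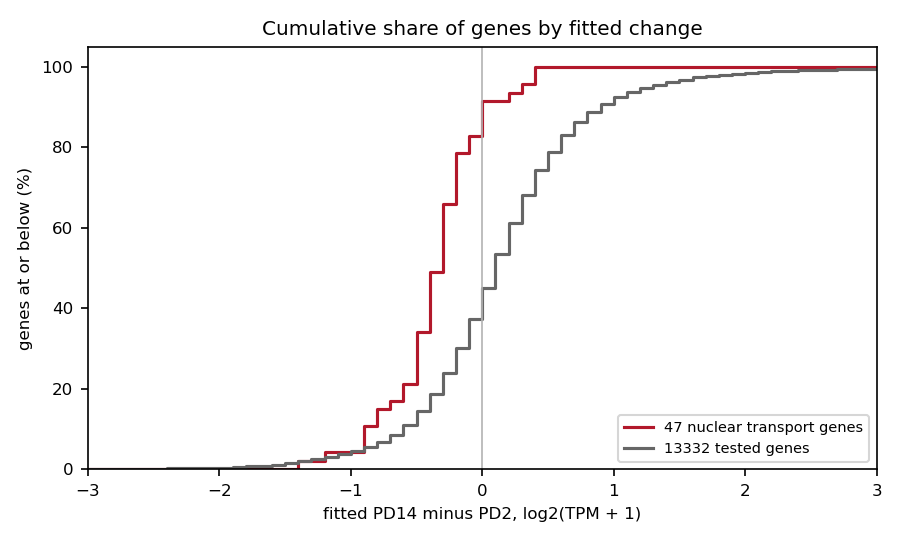
Cumulative share of genes (y axis, %) at or below each fitted PD14 minus PD2 change (x axis, log2(TPM + 1), steps of 0.1) for the 47 tested members and for all 13332 tested genes. The members' curve lies left of the all-gene curve over most of the range, with medians of -0.38 and 0.06.

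The calls rest on few degrees of freedom. In limma 0 of the 10 calls were left without the block for library method, where 0 of all tested genes were called. The 10 calls were also lost without either PD14 or either PD8 library, as were nearly all calls over all tested genes. Without either PD2 library only part of the 10 were called. Calls over all tested genes rose without the rRNA-depleted PD2 library and fell without the poly(A) one. Fits with a library left out hold 1 library in a stage. Over the same settings the members' median stayed between -0.50 and -0.31.

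Both Ran-cycle genes fell, where 4.77% of all tested genes fell. Ran (chromosome 5, 129020069 to 129024323 on mm10) had 514, 354 and 287 TPM at PD2, PD8 and PD14 in poly(A) libraries and 289, 215 and 137 TPM in rRNA-depleted libraries. Each method fell at both steps, and the PD14 values lay below both PD2 values. The fitted change was -0.96 ± 0.13 (SE, n = 2 libraries per stage; limma adjusted p = 0.0245). Rangap1 (chromosome 15, 81704248 to 81745530), the activator of Ran's GTP hydrolysis, had 95.3, 85.0 and 65.2 TPM in poly(A) and 72.9, 54.2 and 39.1 TPM in rRNA-depleted libraries over the same stages. Its change was -0.71 ± 0.14 (limma adjusted p = 0.0405), and 65 bases of its exons overlap Zc3h7b on the opposite strand.

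Of the 5 tested importin alpha genes, the adaptors that read the localization signal, Kpna2 and Kpna3 fell, and Kpna4, Kpna6 and Kpna1 did not pass. Of all tested genes 4.77% fell. Kpna2 (chromosome 11, 106988629 to 106999541) had 275, 165 and 118 TPM at PD2, PD8 and PD14 in poly(A) and 151, 109 and 60.0 TPM in rRNA-depleted libraries. It changed by -1.26 ± 0.14 (limma adjusted p = 0.0188) and had the lowest adjusted p of all members. It was also the only member past the F test of any change among the 3 stages (adjusted p = 0.0472), where 1.46% of tested genes passed. That call was lost without either PD14 library, either PD8 library, the filter, the variance trend or the block. Of the importin alpha TPM, Kpna2 made up 37.6% in poly(A) and 20.5% in rRNA-depleted cells at PD14, against 50.5% and 33.5% at PD2.

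Kpna2 values are uncertain because 92.4% of the 50-base stretches of its longest coding transcript also occur in other annotated genes, 13 in all. The leading copy, Gm10184, had 3.02 and 2.58 TPM at PD14 in poly(A) and rRNA-depleted libraries, against 5.71 and 3.88 TPM at PD2. Kpna3 (chromosome 14, 61365211 to 61439874) had 74.2, 49.9 and 34.4 TPM over PD2, PD8 and PD14 in poly(A) and 77.5, 58.3 and 45.6 TPM in rRNA-depleted libraries. The methods stood close at PD2, and the change was -0.92 ± 0.14 (limma adjusted p = 0.0277). For Kpna4, Kpna6 and Kpna1 the fitted changes were -0.43, -0.10 and -0.09, with adjusted p between 0.113 and 0.865.

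Of the 8 importin beta family genes, Kpnb1, Ipo5 and Ipo7 fell, where 4.77% of all tested genes fell. Kpnb1 (chromosome 11, 97159714 to 97187881), the carrier of classical import, was the most abundant of them, at 328, 263 and 218 TPM in poly(A) and 289, 248 and 197 TPM in rRNA-depleted libraries over PD2, PD8 and PD14. Its methods moved nearly in parallel, with a change of -0.57 ± 0.11 (limma adjusted p = 0.0413), and 466 bases of its exons overlap the antisense gene Gm11583. Ipo5 (chromosome 14, 120911224 to 120947999), which imports histones and ribosomal proteins, had 219, 158 and 116 TPM in poly(A) and 149, 106 and 85.2 TPM in rRNA-depleted libraries. It changed by -0.85 ± 0.11 (limma adjusted p = 0.0221), and the stages did not overlap between PD14 and PD2.

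Ipo7 (chromosome 7, 110018274 to 110056609), also a carrier of ribosomal proteins and histones, had 178, 114 and 78.9 TPM in poly(A) and 171, 124 and 113 TPM in rRNA-depleted libraries. The late step was small in rRNA-depleted libraries, and the fitted change was -0.88 ± 0.17 (limma adjusted p = 0.0395). The other importins gave values on both sides of 0. Ipo11, Ipo9 and Ipo4 were at -0.31, -0.25 and -0.05, and Ipo8 and Ipo13 at 0.19 and 0.34, with limma adjusted p between 0.152 and 0.813. Ipo4 is uncertain, since 59.5% of its 50-base stretches also occur in Gm49378, which shares 2583 of its exon bases on the same strand. Ipo13, which carries cargo in both directions, was the only member whose PD14 libraries both exceeded both PD2 libraries, as 22.4% of tested genes did. It had 46.3 and 40.9 TPM at PD14 in poly(A) and rRNA-depleted cells, against 35.3 and 33.1 TPM at PD2.

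Among 6 exportin genes 1 fell, where 4.77% of all tested genes fell, and the largest fitted value did not pass. Xpot (chromosome 10, 121587380 to 121626332), the exporter of tRNA, had 118, 101 and 79.5 TPM at PD2, PD8 and PD14 in poly(A) and 123, 100.1 and 85.6 TPM in rRNA-depleted libraries. The methods gave nearly equal values at every stage, and the change was -0.54 ± 0.11 (limma adjusted p = 0.0446). Of its 50-base stretches 14.4% also occur in other genes, as do 15.4% of those of Ran. Xpo1 (chromosome 11, 23256041 to 23298249), also called CRM1, exports proteins with a leucine-rich export signal. It had 101, 57.4 and 23.1 TPM in poly(A) and 139, 80.2 and 76.0 TPM in rRNA-depleted libraries. Both methods had a lower value at PD8 than at PD2 by nearly the same amount, -0.80 in poly(A) and -0.79 in rRNA-depleted libraries. From PD8 to PD14 the difference was -1.28 in poly(A) and -0.08 in rRNA-depleted libraries. The fitted PD14 minus PD2 value of Xpo1 was -1.47 ± 0.33 (limma adjusted p = 0.0502), the lowest of any member.

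Xpo1 passed under quantile normalization (-1.49, adjusted p = 0.0463) and without the PD2 rRNA-depleted library (-1.78, adjusted p = 0.0233), and its adjusted p ranged from 0.0233 to 0.441 over the 13 alternatives. Without the PD14 poly(A) library its value was -0.87. It made up 9.82% of exportin TPM in poly(A) and 23.0% in rRNA-depleted cells at PD14, against 26.1% and 32.8% at PD2. Xpo4, Xpo5 and Xpo7, exporters of proteins and, for Xpo5, of microRNA precursors, were at -0.47, -0.29 and -0.24. Xpo6, the exporter of actin, was at 0.22, and adjusted p of these 4 lay between 0.179 and 0.488.

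**Figure D2:**
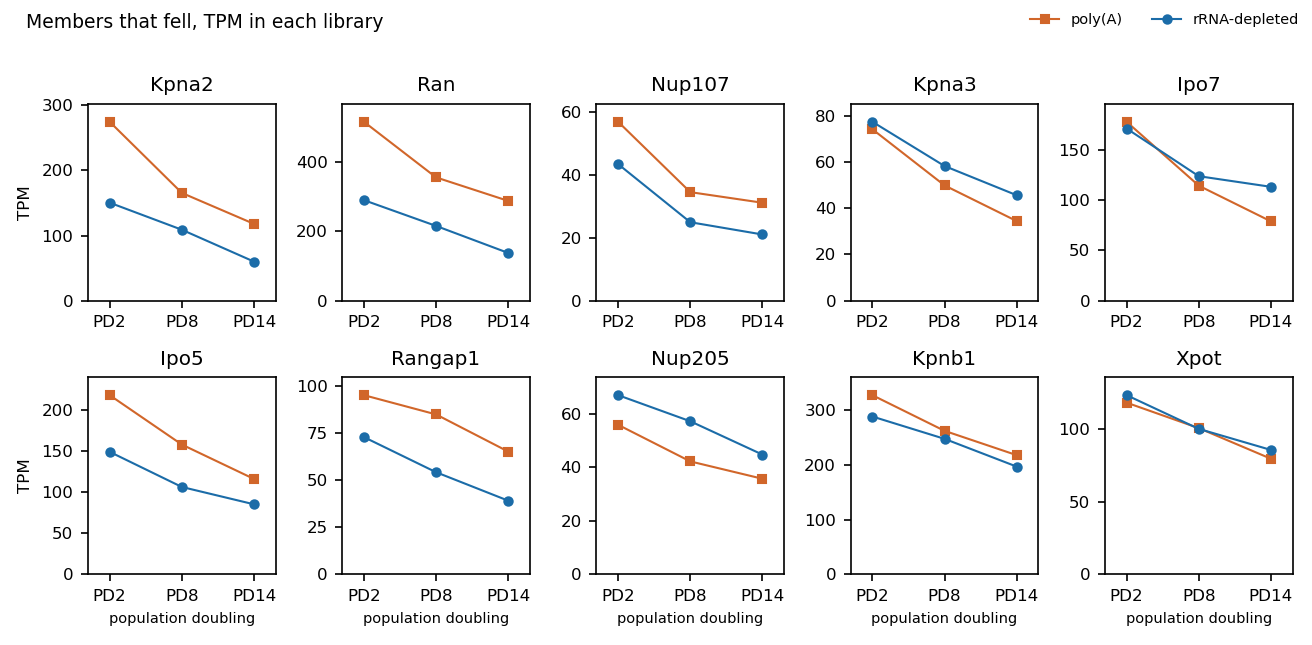
TPM (y axes, from 0) at PD2, PD8 and PD14 (x axes) in each poly(A) library (squares) and each rRNA-depleted library (circles) for the 10 members that fell; lines join libraries of a method. In every panel the PD14 points lie below the PD2 points, with Kpna2 at 118 and 60.0 TPM at PD14 against 275 and 151 TPM at PD2.

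The promoters of the carriers of classical import, Kpna2, Kpnb1 and Ran, and of the exporter Xpo1 are shown because these 4 genes carry the main routes in and out and had negative values in both methods. The letters are from RefSeq on GRCm38.p6, 5′ to 3′ on the gene's strand, and end at the annotated start or at the nearest annotated exon before it. Capitals mark matches on either strand to the CCAAT box (CCAAT), the cell-cycle homology region or CHR (TTTGAA or TTCGAA) and the SP1 box (GGGCGG). E2F letters, which can share bases with the SP1 box, were searched as TTTCGCG and as TTTGGCG, and further as TTTCCCG or else as TTTGCCG, and did not occur in these stretches.
Kpna2, chr11:106999542-106999775, minus strand: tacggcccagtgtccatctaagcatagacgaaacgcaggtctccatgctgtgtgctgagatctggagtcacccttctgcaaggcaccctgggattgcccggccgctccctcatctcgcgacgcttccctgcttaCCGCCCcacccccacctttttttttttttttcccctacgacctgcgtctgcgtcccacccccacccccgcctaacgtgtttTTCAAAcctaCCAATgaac
Kpnb1, chr11:97187893-97188142, minus strand: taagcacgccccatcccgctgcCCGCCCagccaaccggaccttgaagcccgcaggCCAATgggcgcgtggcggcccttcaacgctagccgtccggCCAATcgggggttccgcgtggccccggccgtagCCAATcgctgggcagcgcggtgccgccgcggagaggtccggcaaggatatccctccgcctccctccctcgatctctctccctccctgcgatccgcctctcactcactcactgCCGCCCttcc
Ran, chr5:129019906-129020068, plus strand: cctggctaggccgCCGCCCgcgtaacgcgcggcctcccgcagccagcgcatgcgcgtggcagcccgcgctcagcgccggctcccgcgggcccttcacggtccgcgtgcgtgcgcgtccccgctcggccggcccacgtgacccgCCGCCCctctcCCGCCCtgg
Xpo1, chr11:23255791-23256040, plus strand: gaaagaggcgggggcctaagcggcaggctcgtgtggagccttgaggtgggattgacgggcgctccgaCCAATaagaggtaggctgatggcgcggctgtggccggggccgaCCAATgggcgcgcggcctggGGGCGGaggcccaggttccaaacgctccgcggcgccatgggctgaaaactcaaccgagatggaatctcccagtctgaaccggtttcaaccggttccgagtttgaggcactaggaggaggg

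The Kpna2 stretch held 1 CHR match, 35 to 30 bases before the RefSeq start, and 1 CCAAT box 25 to 21 bases before it. The Kpnb1 stretch held 3 CCAAT boxes, that of Xpo1 held 2, and that of Ran held none of these but 3 SP1 boxes. RefSeq promoters were matched for 40 members, including 9 of the 10 that fell, and the 250 bases before the start that the RefSeq table lists first for each gene were searched. A CCAAT box was present in 42.5% of the 40 member promoters and in 34.5% of all 27025 promoters. A CHR match was present in 27.5% of member promoters and 17.4% of all, and an E2F match in 15% and 5.63%. The SP1 box was present in 65% and 32.9%. In the 9 promoters of members that fell the shares were 33.3% for CCAAT, 22.2% for CHR, 11.1% for E2F and 88.9% for SP1. Over promoters of genes past the filter the shares were 36.6% for CCAAT, 12.1% for CHR, 9.26% for E2F and 59.7% for SP1. A match is only a run of letters in this window, and binding was not measured.

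The pore itself is built of an outer ring (the Y complex), an inner ring, a central channel, cytoplasmic and nuclear extensions and membrane anchors. Of its 27 member genes, 26 were tested and 2 fell, where 4.77% of all tested genes fell. The 2 were Nup107 of the Y complex and Nup205 of the inner ring. Nup107 (chromosome 10, 117750621 to 117792705) had 57.0, 34.6 and 31.2 TPM at PD2, PD8 and PD14 in poly(A) and 43.5, 25.0 and 21.1 TPM in rRNA-depleted libraries. Most of its difference lay between PD2 and PD8 in both methods, and it changed by -0.93 ± 0.14 over the whole span (limma adjusted p = 0.0266). Nup205 (chromosome 6, 35177421 to 35247596), a scaffold protein of the inner ring, had 55.9, 42.2 and 35.7 TPM in poly(A) and 67.1, 57.3 and 44.8 TPM in rRNA-depleted libraries. It changed by -0.60 ± 0.13 (limma adjusted p = 0.0457), the highest adjusted p among the 10.

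The other 7 Y complex genes gave values from -0.56 to -0.09, with adjusted p between 0.111 and 0.742. Sec13, a coat protein of the ring and of secretory vesicles, was the most abundant, with 352, 316 and 300.1 TPM at PD2, PD8 and PD14 in poly(A) and 262, 227 and 185 TPM in rRNA-depleted libraries. Its fitted value was -0.36 ± 0.13 (limma adjusted p = 0.124). Nup133 was at -0.09, the smallest size in the group, with 17.3 and 17.6 TPM at PD14 in poly(A) and rRNA-depleted cells, against 19.5 and 17.7 TPM at PD2. Nup43, Nup160, Seh1l, Nup37 and Nup85 were at -0.56, -0.46, -0.42, -0.38 and -0.36.

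Inner ring genes other than Nup205 were at -0.52 (Nup188), -0.42 (Nup155), -0.35 (Nup93) and -0.33 (Nup35), with adjusted p between 0.109 and 0.330. Nup93, the inner ring gene of highest mean TPM, had 79.5, 78.4 and 65.7 TPM in poly(A) and 60.2, 47.3 and 44.7 TPM in rRNA-depleted libraries. Nup35 is uncertain, since 83.0% of its 50-base stretches also occur in Gm4353. The central channel nucleoporins, whose FG repeats form the barrier of the pore, did not pass. Nup98, whose gene also encodes the Y complex protein Nup96, had 61.2, 62.5 and 53.6 TPM in poly(A) and 127, 107 and 113 TPM in rRNA-depleted libraries, with a fitted value of -0.18 ± 0.13 (limma adjusted p = 0.411). Nup54 had 41.7, 32.7 and 27.1 TPM in poly(A) and 42.5, 31.1 and 32.0 TPM in rRNA-depleted libraries, at -0.50 ± 0.15 (limma adjusted p = 0.0894). Of its 50-base stretches 20.3% also occur in another gene, as do 11.3% of those of Nup133 and 11.1% of those of Pom121.

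On the cytoplasmic face 0 of 5 genes passed in limma, where 4.77% of all tested genes fell and 6.41% rose. Ranbp2, a giant protein of the cytoplasmic filaments that binds Ran and Rangap1, had 84.4, 62.2 and 45.5 TPM at PD2, PD8 and PD14 in poly(A) and 132, 114 and 106 TPM in rRNA-depleted libraries. It was at -0.60 ± 0.17 (adjusted p = 0.0799) and passed without the PD2 rRNA-depleted library (-0.79, adjusted p = 0.0407), with a range of 0.0407 to 0.761 over the alternatives. Its value was -0.37 without the PD14 poly(A) library and -0.40 without the PD2 poly(A) library. Nup214, Rae1 and Nup88 were at -0.27, -0.24 and -0.05, and Aaas, which encodes ALADIN, was at 0.36 ± 0.19 (adjusted p = 0.261), the highest fitted value of any member. Aaas had 95.8 and 43.1 TPM at PD14 in poly(A) and rRNA-depleted cells, against 58.0 and 42.7 TPM at PD2, so the difference lay almost wholly in the poly(A) libraries.

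The 3 nuclear basket genes gave close values. Tpr, which forms the basket filaments, was at -0.41 ± 0.12, Nup153 at -0.41 ± 0.14 and Nup50 at -0.37 ± 0.14, with limma adjusted p between 0.0859 and 0.134. Tpr had 124, 103 and 87.2 TPM over PD2, PD8 and PD14 in poly(A) and 187, 165 and 151 TPM in rRNA-depleted libraries. Of the membrane anchors, Ndc1 had 29.1, 22.9 and 17.8 TPM in poly(A) and 28.7, 17.9 and 17.8 TPM in rRNA-depleted libraries. The methods met at PD2 and at PD14, and the fitted value was -0.67 ± 0.17 (adjusted p = 0.0661). Ndc1 passed under quantile normalization (-0.77, adjusted p = 0.0430), with a range of 0.0430 to 0.392 over the alternatives. Pom121 had 27.6, 23.5 and 21.8 TPM in poly(A) and 28.1, 26.2 and 21.6 TPM in rRNA-depleted libraries, at -0.35 ± 0.15 (adjusted p = 0.182).

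**Figure D3:**
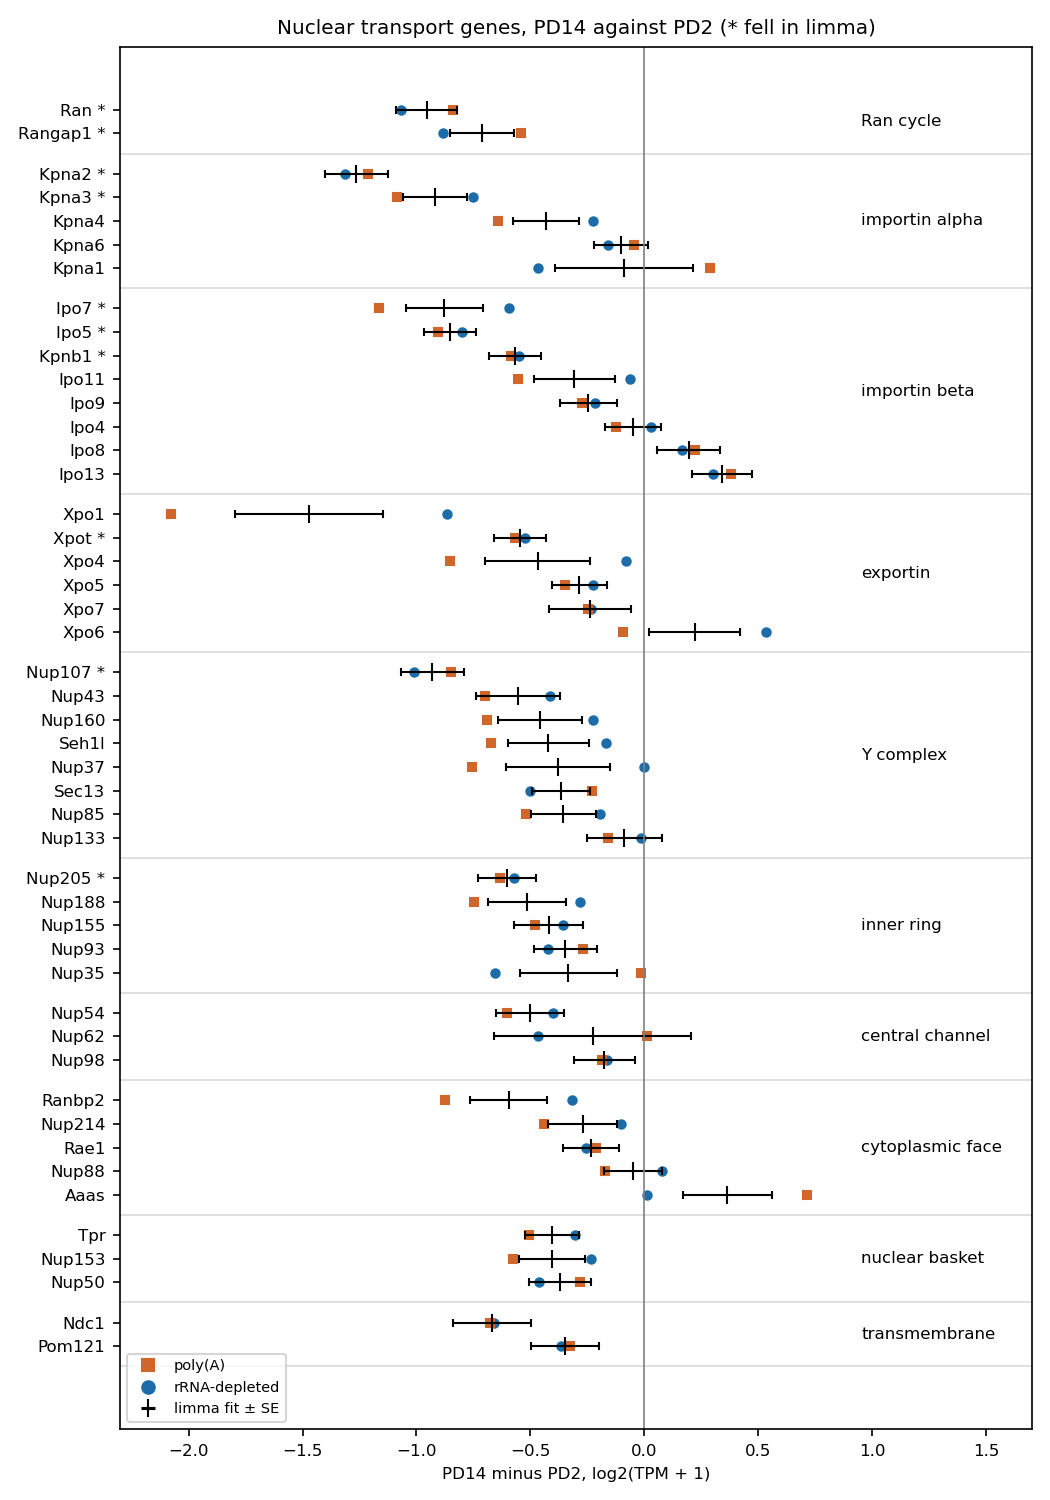
PD14 minus PD2 difference (x axis, log2(TPM + 1)) of the 47 tested members (y axis), grouped by role: poly(A) pair (squares), rRNA-depleted pair (circles) and limma fit with its SE (bars); asterisks mark the 10 that fell. Xpo1 lies farthest left at -1.47 with its methods far apart, and Kpna2 at -1.26 with its methods close.

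The steps of the series were compared to ask when the values parted. For PD8 against PD2, 0 of 47 members passed in limma (background 0% lower and 0.0225% higher). The median was -0.24 and 41 values were negative, beside a median of 0.04 over all genes. Nup107 had the lowest adjusted p, 0.105, at -0.74 ± 0.14. For PD14 against PD8, 0 members passed in limma (background 0%). There the median was -0.17 with 41 negative values, beside 0.01 over all genes, and without the PD14 poly(A) library it was -0.09 with 33 negative values. The late step minus the early step was tested itself, and 0 members passed in limma (background 0%). The difference of late minus early step was positive for 30 members and negative for 17, beside 52.5% negative over all genes. In both methods 27 members stood in the order PD2 above PD8 above PD14, as did 13% of tested genes. The 27 included the 10 that fell over the whole span, which were called from these same libraries, so their order is no separate evidence.

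Methods gave opposite signs for 5 members between PD14 and PD2: Nup62, Nup88, Xpo6, Kpna1 and Ipo4. Of the 47 members 39 were lower and 3 higher in both methods, where 30.8% of tested genes were lower and 38.8% higher in both. Nup62, a central channel nucleoporin chosen here after its values were seen, had 14.4, 17.4 and 14.5 TPM at PD2, PD8 and PD14 in poly(A) libraries. It had 10.3, 31.6 and 7.15 TPM in rRNA-depleted libraries, so the PD8 rRNA-depleted library stood alone. Kpna1, chosen likewise, was highest in the same library, with 23.1, 23.6 and 28.5 TPM in poly(A) and 33.7, 48.0 and 24.1 TPM in rRNA-depleted libraries. Xpo6 had 44.0, 43.0 and 41.1 TPM in poly(A) and 47.3, 46.8 and 68.9 TPM in rRNA-depleted libraries, high only at PD14 in the rRNA-depleted library. Exons of Nup62 overlap Atf5 by 82 bases on the opposite strand and Il4i1 by 97 bases on the same strand. Atf5 had 328 and 225 TPM at PD8 in poly(A) and rRNA-depleted cells, against 309 and 218 TPM at PD2, and Il4i1 0.53 and 0.57 TPM, against 0.16 and 1.25 TPM. Il4i1 reached at most 2.37 TPM in a library.

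**Figure D4:**
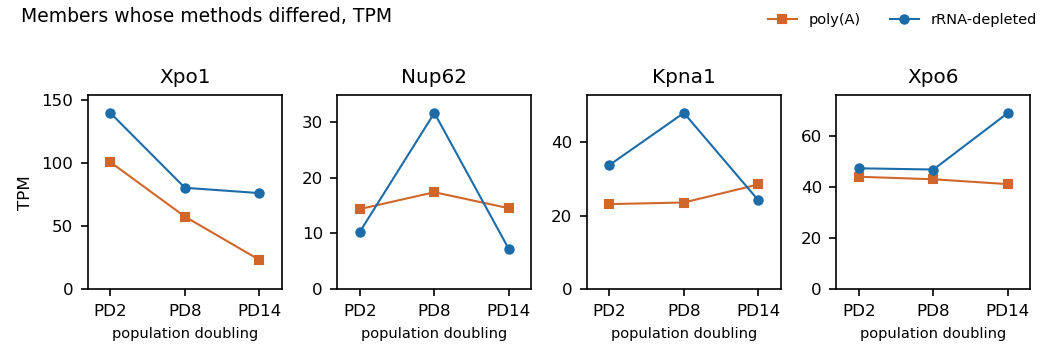
TPM (y axes, from 0) at PD2, PD8 and PD14 (x axes) for 4 members in poly(A) (squares) and rRNA-depleted (circles) libraries; lines join libraries of a method. Xpo1 parts at PD14 (23.1 against 76.0 TPM), Nup62 and Kpna1 peak in the PD8 rRNA-depleted library, and Xpo6 is high in the PD14 rRNA-depleted library.

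Library method was compared as well. Poly(A) against rRNA-depleted libraries, over the 3 stages, gave 10 members higher and 10 lower in limma, where 16.4% of tested genes were higher, 20.9% lower and 37.3% called in either direction. The 20 members called were 42.6% of the 47, near the share of all genes. With TPM rescaled to an equal sum per library the split was 8 higher and 13 lower, and with quantile normalization 12 and 8. The median over all genes was -0.12 with rescaling and 0.06 with quantile normalization, beside -0.04 as reported. Ran (0.87 ± 0.11, adjusted p = 0.00743), Kpna2 (0.81 ± 0.11, adjusted p = 0.00852) and Aaas (0.81 ± 0.16, adjusted p = 0.0177) were highest in poly(A). Nup98 (-0.96 ± 0.11, adjusted p = 0.00637), Ranbp2 (-0.90 ± 0.14, adjusted p = 0.0102) and Nup214 (-0.84 ± 0.13, adjusted p = 0.00975) were lowest among those that passed. Longest coding transcripts of the 10 higher genes had a median of 2438 bases, with a range of 1353 to 4518, and those of the 10 lower genes one of 6650, with a range of 4325 to 9608. Across the 47 members, which share the 6 libraries, the method difference and transcript length had a Spearman rho of -0.769. The same rho for the PD14 minus PD2 change was -0.0368. Without either PD8 or either PD14 library fewer members were called by method, and so were fewer of all tested genes.

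**Figure D5:**
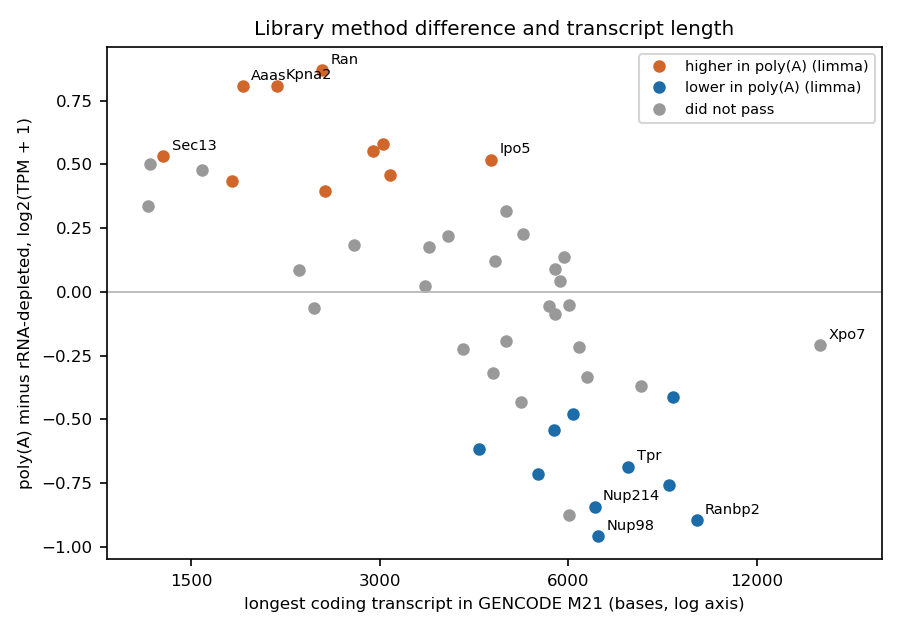
Poly(A) minus rRNA-depleted difference (y axis, log2(TPM + 1), limma fit) against the longest coding transcript (x axis, bases, log axis) for the 47 tested members. The 10 genes higher in poly(A) have transcripts of at most 4518 bases, and the 10 lower ones have at least 4325 bases.

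Beside the members, 30 other transport genes that their symbols leave out were read in the same fit. For PD14 against PD2, 3 of the 30 fell and 0 rose, where 4.77% of all tested genes fell and 6.41% rose. Of the 30 values 19 were negative, beside 45.1% over all tested genes, and the medians were -0.16 and 0.06. The 3 were Ranbp1, which helps to release Ran-GTP from carriers (-0.89 ± 0.11, adjusted p = 0.0208), Nutf2, which returns Ran to the nucleus (-0.54 ± 0.11, adjusted p = 0.0443), and Rcc2, a relative of Rcc1 that acts in mitosis (-0.94 ± 0.19, adjusted p = 0.0442). Ranbp1 had 211 and 166 TPM at PD14 in poly(A) and rRNA-depleted cells, against 383 and 315 TPM at PD2. Rcc1, which loads Ran with GTP, and Cse1l, which returns importin alpha to the cytoplasm, are named after their values were seen. They were at -0.78 ± 0.17 (adjusted p = 0.0508) and -0.50 ± 0.11 (adjusted p = 0.0533). Nup62cl and Nup210l, whose symbols hold letters after the number, were left out of the members. Nup62cl was at -1.43 ± 0.31 (adjusted p = 0.0497) and Nup210l at -0.28 ± 0.26 (adjusted p = 0.494).

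Genes of the dividing cell moved beside the transport genes. Of 30 mitosis and G2/M genes 26 fell and 0 rose at PD14 against PD2, with a median of -1.66. Among 30 replication genes 18 fell and 0 rose, with a median of -0.99. Of all tested genes 4.77% fell and 6.41% rose, with a median of 0.06. The members' median of -0.38 was smaller in size than those of the mitosis and replication lists. A CCAAT box was present in 84% of 25 mitosis promoters and 65.2% of 23 replication promoters. Its share was 42.5% in member promoters and 36.6% over genes past the filter. In the same order the shares were 36%, 26.1%, 27.5% and 12.1% for CHR. They were 12%, 34.8%, 15% and 9.26% for E2F, and 68%, 65.2%, 65% and 59.7% for SP1. The part of the division genes in the values of the transport genes was not tested.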

How the data were processed

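RNA-seq of 6 MEF libraries was read from 1 table that the authors deposited as TPM for 21988 gene symbols, with no read counts. The submitters' processing notes name bcl2fastq, cutadapt 1.14, HISAT2 2.0.5, StringTie 1.3.1c and the mm10 build. The role of each tool, the annotation and the use of strand in counting are not given in the sources used here. In the deposited table the TPM sum to 1000000 in each poly(A) library and to 937922, 950531 and 937217 in the rRNA-depleted libraries at PD2, PD8 and PD14. The number of columns with no sample was 0.

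Values were analysed as log2(TPM + 1), which understates changes of low genes, in R 4.3.3 with limma 3.58.1. The model held stage and, as a block, library method, and the variance was moderated along mean expression. Residual degrees of freedom were 2, to which the prior added 3.22. The block was kept because the labels tie replicate number to method; deviations of libraries with the same number correlated at 0.664 to 0.854. P-values were two-sided, with a threshold of 0.05. The fit was run on simulated data with independent Gaussian spread, to check that it returned the changes put in. Its error rate in the real libraries was not tested by this.

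Members and gene lists were chosen with earlier results of these data known. Values are given per library for members that passed and, in each role group, for those with the highest mean TPM and the largest change. Positions, exon overlaps and 50-base matches come from GENCODE M21 and promoters from RefSeq on GRCm38.p6. Alternatives were another pseudocount, no filter, other scalings, no block, no trend and leaving out each library.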

Additional observations from a re-analysis of the deposited data

How the results depend on the processing

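Of PD14 against PD2, 10 members were called with a pseudocount of 0.1 or 0.5 or with rescaled TPM, 12 with quantile normalization and 11 with Nup62cl and Nup210l counted, an alternative chosen after seeing the data. The number was 4 with no filter on low values (404 of all genes called, against 1490) and 5 with no variance trend (938). It was 0 with no replicate block, where 0 of all genes were called. Leaving out 1 library at a time left 1 residual degree of freedom, and fewer members were called. Fewer of all genes were called too, except without the PD2 rRNA-depleted library, where more were. The F test of any change gave 0 members with no filter, no trend or no replicate block, and 0 to 3 with a library left out. Calls by library method ranged from 2 to 20 with a library left out. The median change of PD8 against PD2 ranged from -0.29 to -0.20 with a library left out, and that of PD14 against PD8 from -0.23 to -0.09. In all 13 planned settings the 10 members that fell kept a negative value, each was called in 4 to 8 of them, and their highest adjusted p under any setting lay between 0.300 and 0.562. The paired fit with the block is the one reported, and without the block 0 members were called in any comparison of stages. The cause of these losses was not tested. Depth is unknown, so counting error could not be set beside any value.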
